A study of Ciona robusta with 6 samples.

Results

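Secreted ligands of the TGF-β family and the proteins that bind them outside the cell set how strongly a field of cells is exposed to BMP and Nodal signals. BMP ligands act through serine/threonine kinase receptors and Smad proteins, Chordin and Noggin bind BMP ligands and keep them from their receptors, and Nodal acts through a separate set of Smad proteins. In vertebrate embryos low BMP activity accompanies formation of the neural plate, and in ascidians Nodal patterns the lateral neural plate. The genes described here are the 5 KH2012 gene models of this group that were chosen by identifier, of 16526 gene models in the count tables. They are the antagonists *Chordin* (KH2012:KH.C6.145) and *Noggin* (KH2012:KH.C12.562), the BMP ligands *Bmp2/4* (KH2012:KH.C4.125) and *Admp* (KH2012:KH.C2.421), and *Nodal* (KH2012:KH.L106.16). All 5 passed the minimum of 100 reads over the 6 libraries that a gene needed to be tested. The names came with the choice of gene models, and the study's supplementary lists pair a homolog name with 1 of them, KH.C6.145 with *CHRD*.

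The libraries hold polyA RNA of GFP+ cells sorted by FACS from dissociated wildtype *Ciona robusta* embryos raised at 18°C. *Dmrt* regulatory DNA drove the transgenes in the anterior neural plate (ANP) lineage, the neuroectoderm that gives rise to the palps and the anterior brain. The 3 control libraries came from embryos electroporated with *Dmrt>GFP*, and the other 3 from embryos given *Dmrt>GFP* together with *Dmrt>Lhx3/4*, which misexpresses a LIM homeobox factor of the cardiopharyngeal lineage. Controls received no other construct in place of *Dmrt>Lhx3/4* by the labels. The labels call the libraries biological replicates but do not say which embryos went into each, so the spread behind each p-value is that between these libraries and may be technical.

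Reads assigned to genes came to 52.6 to 71.2 M per library. The largest of these lie above the highest read depth that the paper states per sample, a difference that was not resolved. *Lhx3/4* was at 30.1 to 53.2 CPM in the controls and at 541 to 644 CPM in the *Dmrt>Lhx3/4* libraries, reads of the transgene included. CPM are read counts scaled to a common library size (TMM). The ANP markers *Six3/6*, *Onecut* and *Tyrp-1* were present in every control library, at 363 to 609 CPM, and with *Lhx3/4* they changed by -3.33, -4.31 and -6.43 on the log2 scale, all lower. The study names these ANP genes among the most lowered of its 1000 highest control genes in these same libraries. Their fall thus follows from the choice and is no separate support. Of 3 cardiopharyngeal markers, *Foxf* and *Irxb* rose by 2.04 and 1.91 on the log2 scale, and *Hand.r* (1.93) did not pass the test (adjusted p = 0.0115, 0.0199 and 0.173 from edgeR). *Hand.r* was called higher once edgeR was blocked on replicate number (2.13, adjusted p = 0.0201), and DESeq2 called it too (1.91, adjusted p = 0.0192). These 3 markers are the targets that the study names as raised. It reports many other primary cardiopharyngeal targets as unchanged (among them *Irxa*, *Soxh* and *Gsc*) or lower (*Elk1*, *Foxp* and *SoxC*). The part of these shifts in cell state in the results below was not tested, and in sorted pools fewer expressing cells and less RNA per cell cannot be told apart.

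Both BMP antagonists and both BMP ligands were lower in ANP cells that misexpressed *Lhx3/4*, and *Nodal* did not pass the test. *Chordin* fell to 32.0% and *Noggin* to 32.7% of their mean control level in CPM, while *Bmp2/4* fell to 44.9% and *Admp* to 55.9%. A call needed an edgeR quasi-likelihood p below 0.05 after Benjamini-Hochberg adjustment over every tested gene, and a change of 0.58 or more on the log2 scale. By this rule 4 of the 5 genes fell and 0 rose, where 4.77% of the 13641 tested genes were called, 2.92% as lower and 1.85% as higher. The 5 genes were chosen with earlier results of these data known, so the shares are background and no test of the group. *Chordin* and *Admp* are among the study's 1000 highest genes in control cells, and shares over genes of like level were not computed. The same 4 genes had all *Lhx3/4* libraries below all controls, as did 10.6% of tested genes, and 0 had them all above, as did 10.9%. A log2 fold change of -0.58 or lower was reached by all 5 genes and by 14.7% of tested genes. The median log2 fold change was -1.15 over the 5 genes and 0.013 over all tested genes.

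**Figure D1:**
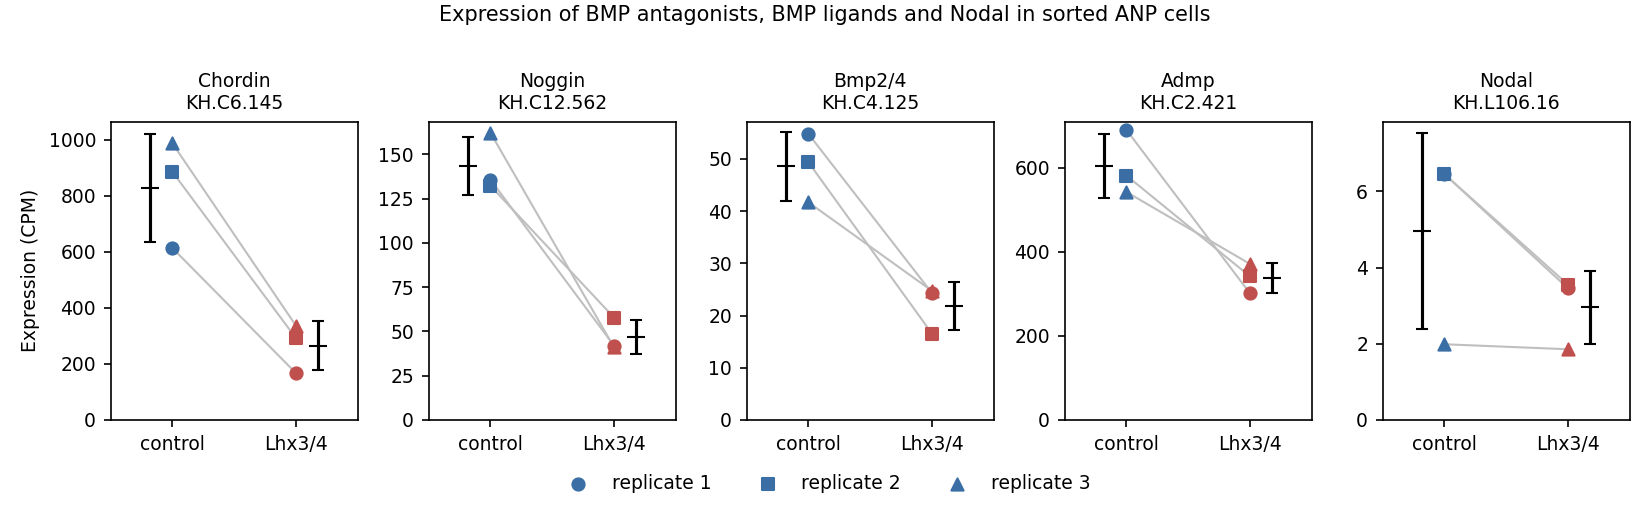
Expression in CPM (vertical axes, each from 0) of the 5 genes in each library, with control libraries in blue and Lhx3/4 libraries in red. Symbols give the replicate number, gray lines join libraries of the same number, and black bars give the mean ± SD of 3 libraries. The groups are separate for every gene but Nodal, where control replicate 3 (1.99 CPM) lies below Lhx3/4 replicates 1 and 2 (3.45 and 3.55 CPM).

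*Chordin* encodes a secreted protein that binds BMP ligands and is released from them by proteases of the tolloid family. It was measured at 613, 885 and 986 CPM in control replicates 1, 2 and 3, and at 167, 291 and 336 CPM in *Lhx3/4* replicates 1, 2 and 3. Every *Lhx3/4* library lay below every control, and replicate 1 was the lowest of its group in both. The mean went from 828 ± 193 to 265 ± 87.6 CPM (SD, n = 3 each). The log2 fold change was -1.65 (standard error 0.29, 95% interval -2.33 to -0.97, adjusted p = 0.0192 from edgeR). Library by library of the same number, *Chordin* stood at 0.272, 0.329 and 0.340 times its control level for numbers 1, 2 and 3. These 3 ratios are close to each other although the levels within a group differed up to 1.61-fold among controls and 2.01-fold among *Lhx3/4* libraries. A block for replicate number gave a standard error of 0.10 in place of 0.29, at a log2 fold change of -1.68 (adjusted p = 9.9e-05 from edgeR). In the fit without the block, leaving out control replicate 2 or *Lhx3/4* replicate 2 ended the call (adjusted p = 0.0649 and 0.0666 from edgeR). The log2 fold changes were then -1.60 and -1.72.

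*Noggin* encodes the other secreted antagonist, unrelated in sequence to Chordin, which binds BMP dimers directly. It was measured at 136, 132 and 162 CPM in control replicates 1, 2 and 3, and at 42.0, 57.9 and 41.1 CPM in the *Lhx3/4* replicates. The lowest control was more than double the highest *Lhx3/4* library. The mean went from 143 ± 16.4 to 47.0 ± 9.45 CPM (SD, n = 3 each). The log2 fold change was -1.61 (standard error 0.18, 95% interval -2.03 to -1.19, adjusted p = 0.0031 from edgeR), with a change of nearly the size of that of *Chordin* and a smaller standard error. *Noggin* was the one member whose call held whichever library was left out, with adjusted p of 0.00645 to 0.016 and log2 fold changes of -1.79 to -1.51 (edgeR). Within replicate numbers 1, 2 and 3 it stood at 0.309, 0.437 and 0.253 times its control level, so the smallest fall was at number 2 and the largest at number 3.

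*Bmp2/4* is the ascidian counterpart of the vertebrate genes BMP2 and BMP4, the ligands that Chordin and Noggin are best known to bind. It was measured at 54.8, 49.4 and 41.7 CPM in control replicates 1, 2 and 3, and at 24.3, 16.5 and 24.7 CPM in the *Lhx3/4* replicates. The groups did not overlap, and the control levels lay in an order opposite to that of *Chordin* in the same libraries. The mean went from 48.6 ± 6.58 to 21.8 ± 4.61 CPM (SD, n = 3 each). The log2 fold change was -1.15 (standard error 0.22, 95% interval -1.66 to -0.65, adjusted p = 0.0249 from edgeR). Within replicate numbers it stood at 0.443, 0.335 and 0.593 times its control level. The call held without control replicate 3 (adjusted p = 0.0268) and was lost without any other one library (adjusted p = 0.0574 to 0.0872 from edgeR), with log2 fold changes between -1.26 and -0.99.

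*Admp* encodes a BMP family ligand that in *Xenopus* is made on the dorsal side of the gastrula, together with BMP antagonists. It was measured at 690, 581 and 542 CPM in control replicates 1, 2 and 3, and at 301, 341 and 371 CPM in the *Lhx3/4* replicates. These groups were again apart, and the libraries of a group differed by at most 1.27-fold, the narrowest spread of the 5 genes when both groups are taken. The mean went from 605 ± 76.5 to 338 ± 35.1 CPM (SD, n = 3 each), or -0.84 on the log2 scale (standard error 0.15, edgeR adjusted p = 0.0195). Its 95% interval of -1.19 to -0.49 reaches past the fold threshold of 0.58. The ratios to control within replicate numbers 1, 2 and 3 were 0.436, 0.587 and 0.684, so that the fall was largest at number 1, where *Admp* was highest in control cells. As with *Bmp2/4*, the call held without control replicate 3 (adjusted p = 0.02) and was lost without any other one library (adjusted p = 0.0529 to 0.0822 from edgeR), with log2 fold changes between -0.91 and -0.76.

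*Nodal* encodes a ligand of the other branch of the family and was counted in few reads. Control replicates 1, 2 and 3 held 376, 390 and 133 reads, and the *Lhx3/4* replicates held 192, 242 and 135 reads. In CPM this was 6.45, 6.45 and 1.99 in controls and 3.45, 3.55 and 1.85 with *Lhx3/4*. The library numbered 3 was the lowest of its group in both groups, and the groups overlapped through control replicate 3. The exact Poisson interval for counting error of that library was 1.66 to 2.35 CPM (95%), taking each read as independent. Those of control replicates 1 and 2 start at 5.82 and 5.83 CPM, so the difference between controls was larger than this counting error. Sampling of few RNA molecules is not covered by such intervals. The log2 fold change of *Nodal* was -0.75 (standard error 0.53, 95% interval -1.99 to 0.49, adjusted p = 0.582 from edgeR). In the fit blocked on replicate number the standard error was 0.31 and the log2 fold change -0.63 (adjusted p = 0.23 from edgeR). *Nodal* stood at 0.535 and 0.550 times its control level within replicate numbers 1 and 2, and at 0.934 times within number 3. Without control replicate 3 the log2 fold change was -1.13 (adjusted p = 0.174 from edgeR). Without *Lhx3/4* replicate 3 it was -0.50, the smallest of the leave-one-out values (adjusted p = 0.872 from edgeR). The unblocked interval includes both no change and falls as large as those of the other 4 genes. The blocked interval, -1.37 to 0.11, also includes no change but not the falls of *Chordin* and *Noggin*.

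**Figure D2:**
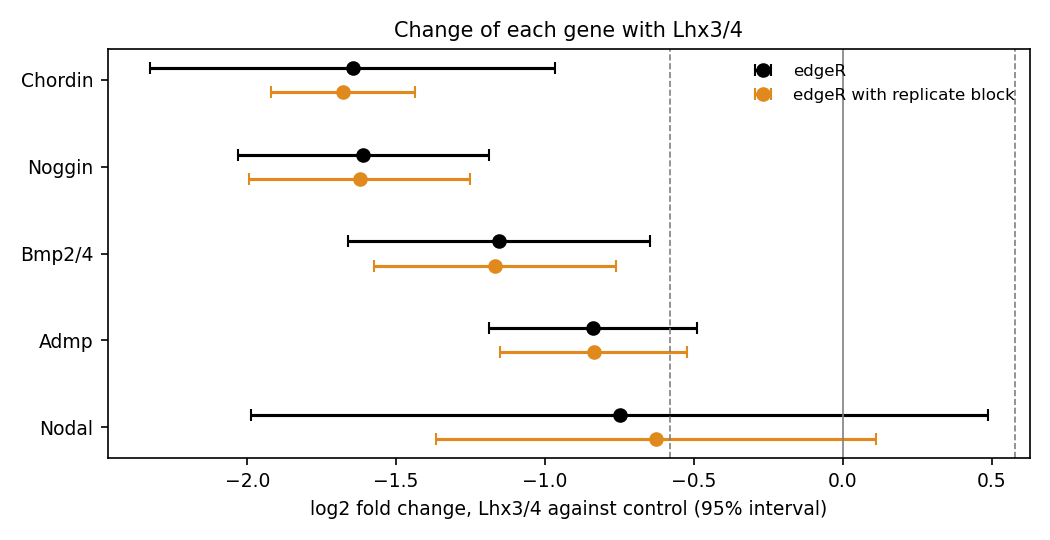
Log2 fold change of Lhx3/4 against control (horizontal axis) for the 5 genes, with 95% intervals from edgeR without (black) and with (orange) the replicate number as a block. The dashed lines mark the fold threshold of 0.58 in either direction. The intervals of Chordin, Noggin, Bmp2/4 and Admp lie below 0 in both fits, and that of Nodal spans 0 in both.

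Within replicate numbers, all 5 genes were lower with *Lhx3/4* at each of the 3 numbers, as were 25.5% of all tested genes. Libraries of one number moved together for some of the genes and not for others. As deviations of log2 CPM from the group mean, *Chordin* was at -0.41 in control replicate 1 and -0.61 in *Lhx3/4* replicate 1, and *Nodal* was at -1.12 and -0.60 in the libraries numbered 3. For *Bmp2/4* the libraries numbered 1 were both above their group means (0.18 and 0.18), but those numbered 3 went opposite ways (-0.21 and 0.20). *Admp* deviated in opposite directions in the control and *Lhx3/4* libraries of each number. The block for replicate number narrowed the standard error most for *Chordin* and *Nodal*, while *Admp* went from 0.15 to 0.13. With the block 4 of the 5 genes fell, where 6.94% of tested genes fell and 4.72% rose. DESeq2 also called 4 of 5 lower, where it called 5.76% of genes lower and 3.74% higher.

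**Figure D3:**
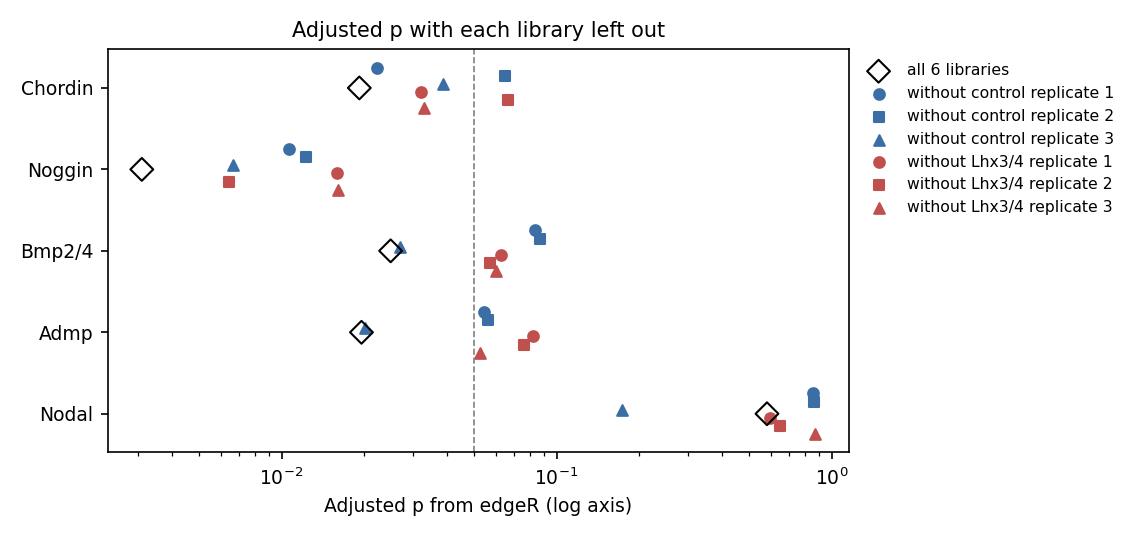
Adjusted p from edgeR (horizontal log axis) for each gene with all 6 libraries (open diamonds) and with each library left out (blue for a control library, red for an Lhx3/4 library, symbols by replicate number). The dashed line marks 0.05. All points of Noggin lie below it, Chordin has 2 points above it, Bmp2/4 and Admp have 5 each, and all points of Nodal lie above it.

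To describe the balance of antagonists and ligands, the reads of each pair of the 5 genes were set against each other within a library. Such a ratio needs no scaling between libraries. Its size depends on gene lengths, which are not given in the count tables, so its change between groups is described here and levels are not compared between genes. The log2 ratio of *Noggin* to *Admp* reads was -2.35, -2.14 and -1.74 in control replicates 1, 2 and 3, and -2.84, -2.56 and -3.18 in the *Lhx3/4* replicates. Here every *Lhx3/4* library was below every control, a mean difference of -0.79, or 1.72-fold less *Noggin* per *Admp* read. The log2 ratio of *Chordin* to *Admp* was -0.17, 0.61 and 0.86 in controls and -0.85, -0.23 and -0.14 with *Lhx3/4*. The groups overlapped in control replicate 1, and the mean difference was -0.84, or 1.79-fold less *Chordin* per *Admp* read. Within replicate numbers this ratio differed by -0.68, -0.83 and -1.01.

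The log2 ratio of *Chordin* to *Noggin* differed between groups by -0.056, with differences of -0.19, -0.41 and 0.43 within numbers 1, 2 and 3. The ratio of *Chordin* to *Bmp2/4* differed by -0.51 and that of *Noggin* to *Bmp2/4* by -0.45, and both overlapped between groups. With single libraries left out, the first ran from -0.80 (without control replicate 1) to -0.12 (without *Lhx3/4* replicate 1) and the other from -0.80 (without *Lhx3/4* replicate 2) to -0.26 (without control replicate 3). Between the BMP ligands, *Bmp2/4* to *Admp* differed by -0.33, and by -0.13 without *Lhx3/4* replicate 2. Against *Nodal* the mean differences were -1.06 for *Chordin*, -1.003 for *Noggin*, -0.55 for *Bmp2/4* and -0.22 for *Admp*, and all overlapped between groups. Without control replicate 3, the control lowest in *Nodal*, they were -0.35, -0.35, -0.089 and 0.27. In all, 6 of the 10 ratios were lower at each of the 3 replicate numbers, namely *Chordin* to *Bmp2/4*, *Admp* and *Nodal*, *Noggin* to *Admp* and *Nodal*, and *Bmp2/4* to *Nodal*. Each ratio is written with the gene that fell more first, so negative mean differences follow from that order. The ratios share genes, so this count restates the order of the falls and is no separate support. Among 10 pairs compared, the groups were apart for *Noggin* to *Admp* alone (exact permutation test over the libraries, two-sided, p = 0.1, the smallest p that 6 libraries allow, and 0.5 adjusted over the 10 pairs). The other 9 pairs had p of 0.2 to 1. With 3 libraries against 3 no pair could pass this unpaired test, and it shows neither an unequal nor an equal change of antagonists and ligands. An exact sign-flip test of the differences within replicate numbers gave p = 0.25 for *Chordin* to *Admp* and for *Noggin* to *Admp*. This is the smallest p that 3 numbers allow, so no pair could pass it either.

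**Figure D4:**
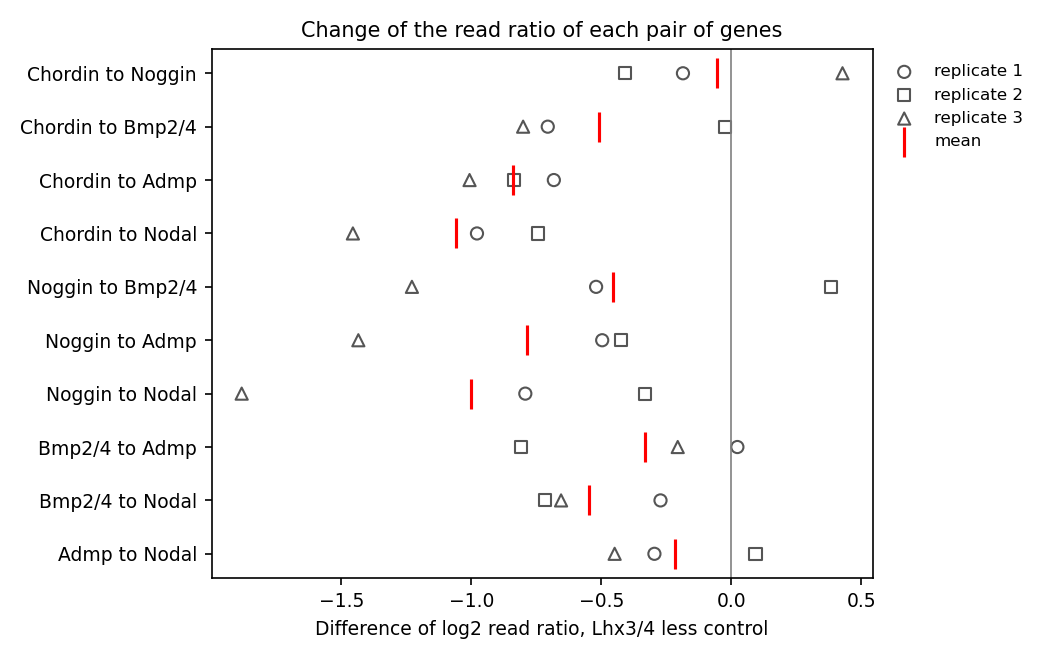
Difference in the log2 ratio of reads of 2 genes between Lhx3/4 and control (horizontal axis) for each of the 10 pairs, with open symbols for the difference within each replicate number and red bars for the mean. For 6 pairs all 3 numbers lie below 0, among them Chordin to Admp (mean -0.84), Noggin to Admp (-0.79), Chordin to Nodal (-1.06) and Noggin to Nodal (-1.003), and the other 4 pairs have points on both sides of 0. Each pair is written with the gene that fell more first, so negative means follow from that order.

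Taken over the BMP genes together, the mean log2 count of *Chordin* and *Noggin* less that of *Bmp2/4* and *Admp* was 0.57, 1.01 and 1.41 in control replicates 1, 2 and 3. In the *Lhx3/4* replicates it was -0.032, 0.79 and 0.29. The groups overlapped, and the mean went from 1.00 ± 0.42 to 0.35 ± 0.41 (SD, n = 3 each), a difference of -0.65. With reads summed over the antagonists and over the ligands, which weights *Chordin* and *Admp* by their larger counts, the log2 ratio was 0.0078, 0.69 and 0.98 in controls and -0.64, -0.036 and -0.071 with *Lhx3/4*. This measure did not overlap and differed by -0.81, a 1.75-fold smaller share of antagonist to ligand reads. Neither was tested, since each is a score over the chosen genes. The 5 genes summed to 1500 to 1735 CPM in control libraries and 537 to 774 CPM with *Lhx3/4*.

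Other genes of the pathway could be followed only where an identifier was paired with a name, which was so for 2 genes of the list of ligands, antagonists, receptors, Smad proteins and targets. The homolog of *MSX2* (KH.C2.957) belongs to a homeobox family that responds to BMP signals in vertebrates. It was measured at 233, 298 and 351 CPM in control replicates 1, 2 and 3 and at 14.1, 25.7 and 24.3 CPM in the *Lhx3/4* replicates, far apart. On the log2 scale it fell by 3.78 (standard error 0.28) at an edgeR adjusted p of 0.000665, and the call held whichever library was left out. The homolog of *SULF1* (KH.C2.588), a secreted sulfatase that trims heparan sulfate and in vertebrates alters the response to several growth factors, BMPs among them, went the other way. It was measured at 121, 111 and 195 CPM in controls and at 291, 393 and 421 CPM with *Lhx3/4*, again without overlap. On the log2 scale it rose by 1.37 (standard error 0.25) at an edgeR adjusted p of 0.0222. Leaving out control replicate 1 or 2, or *Lhx3/4* replicate 2 or 3, ended this call (edgeR adjusted p of 0.077 to 0.0863). Of these 2 pathway genes, 1 fell and 1 rose. The study's lists give homolog names to their most changed genes in these same libraries, so that both genes changed follows from how their names were found and says nothing of the pathway as a whole. Receptors, Smad proteins and other ligands are not analysed here.

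Genes whose levels ran most like those of each member were sought among the 8554 genes with a mean of at least 10 CPM, by Pearson's r of log2 CPM over the 6 libraries. The 3 closest genes to each of the 5 members were 15 different genes, at r of 0.984 to 0.999, and 0 of them had a paired name. Of the 15, 6 fell by edgeR and 9 did not pass, where 2.92% of all tested genes fell. A high r with a member that fell favors genes that fell, so this count follows from how the genes were picked. The closest that fell were KH.C2.442 and KH.C9.229, at r of 0.996 with *Noggin* each, which changed by -1.41 and -1.20 on the log2 scale (edgeR adjusted p of 0.00413 and 0.00498). The 3 genes closest to *Nodal* had log2 fold changes of -0.42, -0.13 and -0.38 and did not pass the test (adjusted p = 0.566 to 0.822 from edgeR). Such values describe 6 libraries that share group and replicate number, and with so many genes compared a high r is common.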

How the data were processed

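PolyA RNA of sorted GFP+ cells was sequenced in paired-end libraries. Sources differ on the library kit (Takara SMART-Seq HT in the methods, an NEB ultra-low input kit in the labels). The authors aligned reads to the ci3 assembly (HISAT2), assigned them to KH2012 gene models (HTSeq) and deposited 1 table of raw counts per library. Neither tool versions nor a strand setting were found in the sources used here, so antisense overlaps may share reads. The 5 HTSeq summary lines, which were left out, held 28.5% to 38.2% of each table. These are reads assigned to no gene, and include 12.1% to 19.5% that did not align and 5.38% to 5.97% ambiguous between genes. A further deposited table holds only the authors' DESeq2 comparison (fold changes, p-values, mean normalized counts) and was not used.

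Counts were tested with edgeR 4.0.16 in R 4.3.3 (quasi-likelihood, TMM factors of 0.966 to 1.06) over 13641 genes with at least 100 reads in all 6 libraries together. Standard errors are the log2 fold change divided by the root of its F statistic. Ratios within a library had a pseudocount of 0.5 and correlations a prior count of 2. Alternatives were DESeq2 1.42.0, other scalings, filters and thresholds, the replicate number as a block, and leaving out each library. Deviations from group means correlated at 0.55, 0.46 and 0.55 between groups at the same replicate number, and at -0.34 to -0.17 at different numbers. Deviations within a group cancel, so high values at the same number push the others down, and those add no separate support. The values at the same number show that libraries of one number deviated alike in both groups. With 3 libraries per group there are few ways to match them, so this does not settle whether the numbers pair the libraries. The reported fits and the ratio test are without a pairing by number, and the block is an alternative. Nothing in the labels ties a number to a day. Libraries of a group differed by more than counting error (chi-square over genes divided by its degrees of freedom, 127 to 360), so each was counted once. Whether they are separate preparations of one RNA was not tested. The steps were tested on simulated data with 2-fold and 4-fold changes and no effect of replicate number. There edgeR recovered 9 of 100 2-fold and 54 of 98 4-fold changes, with 5 false calls. DESeq2 recovered 33 and 77 of them, with 48 false calls, and edgeR with the block 5 and 51, with 6. A gene that did not pass may thus have changed.

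The members and lists were chosen with earlier results of these data known. Named genes are the members, *Lhx3/4*, the ANP and cardiopharyngeal markers, pathway genes with a paired name, and the 3 genes closest to each member, of which those without a name are mostly given as counts. None of the 1241 RefSeq-like identifiers (0) and no KH identifier (0) matched the reference gene table, so no coordinates or sequences are given. Intervals on read counts cover counting error only.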

Additional observations from a re-analysis of the deposited data

How the results depend on the processing

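Over 13 alternatives set for each gene, the fall of *Noggin* passed in all, that of *Chordin* in 11, those of *Bmp2/4* and *Admp* in 8 each, and *Nodal* in none (adjusted p = 0.174 to 0.872 from edgeR or DESeq2). No log2 fold change of the 5 genes changed sign. The calls that were lost were all lost by leaving out 1 library, where log2 fold changes ran from -1.85 to -1.42 for *Chordin*, -1.26 to -0.99 for *Bmp2/4* and -0.91 to -0.76 for *Admp*. Scaling, filters, DESeq2 and the replicate number as a block changed no call on the 5 genes. An alternative chosen after seeing the data left out both libraries of a number, 2 against 2. Without number 1 the calls on *Noggin* (-1.59), *Bmp2/4* (-1.16) and *Admp* (-0.68) were lost, without number 2 those on *Chordin* (-1.67), *Bmp2/4* (-0.98) and *Admp* (-0.88), and without number 3 those on *Chordin* (-1.71) and *Bmp2/4* (-1.35). Fewer libraries enter these fits, and no fit that left out libraries had the block.

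Over all tested genes, 252 rose and 398 fell. DESeq2 gave 508 and 783, the replicate number as a block 644 and 947, an adjusted p under 0.01 gave 108 and 199, and leaving out 1 library gave 147 to 305 and 246 to 426. The cause of these shifts was not tested. For the read ratios, 95 of 100 alternatives kept the direction, and all that turned left out 1 library. Other pseudocounts and the pairing by replicate number could hardly move these differences, so they add little to that count. The ratio of *Chordin* to *Noggin* turned when control replicate 2 or either of *Lhx3/4* replicates 1 and 2 was left out (-0.35 to 0.17 over single libraries left out), and that of *Admp* to *Nodal* when control replicate 3 or *Lhx3/4* replicate 1 was (-0.59 to 0.27). Pairing by replicate number leaves the mean difference of each ratio as it is. *Nodal* had the fewest reads of the 5, 133 to 390 per library, and its controls differed by more than the counting error of independent reads.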
